A study of Mus musculus with 60 samples.

Results

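The 38 genes described here encode heat shock proteins and their co-chaperones, the chaperones of the endoplasmic reticulum (ER), regulators of the unfolded protein response and 2 oxidative stress enzymes. They were chosen by name, and all 38 were found among the 46480 genes counted by RNA-Seq in the dorsal and ventral dentate gyrus (DG) of mice. By role they comprised 6 cytosolic Hsp70 and Hsp110 genes, 2 cytosolic Hsp90 genes, 7 cytosolic co-chaperone, small heat shock protein and *Hsf1* genes, 3 mitochondrial chaperones, 13 ER chaperones, 5 regulators of the unfolded protein response and 2 oxidative stress enzymes. The animals were male C57BL6J mice that went into standard housing (SH, 3 mice per cage) or an enriched environment (EE, 12 mice in a large cage with running wheels and toys that were replaced each week) at weaning on postnatal day 22. They stayed there for 8 weeks and were killed at the age of 80 days. The 4 groups were dorsal SH (n = 4), dorsal EE (n = 5), ventral SH (n = 4) and ventral EE (n = 5). Each sample was a pool of tissue punched from several mice, and the dorsal and ventral samples with the same housing and replicate number came from the same mice, so that the 18 samples represented 9 pools. The study excluded an SH sample for its expression of *Xist*, an RNA of female cells. SH replicate 3 was therefore left out in both regions (*Xist* at 34.4 CPM in its dorsal and 12.1 CPM in its ventral sample, and at most 0.657 CPM in the other 18 samples, where CPM is the count scaled for library size).

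Chaperones bind newly made or unfolded proteins and help them to fold. In the cytosol, Hsp70 works in cycles set by J-domain co-chaperones and nucleotide exchange factors and passes some clients on to Hsp90, and the transcription factor Hsf1 raises the expression of these genes when unfolded proteins accumulate. In the ER, BiP, Grp94, the calnexin and calreticulin lectins and the protein disulfide isomerases fold membrane and secreted proteins, and the unfolded protein response (through the sensors Ire1, Perk and Atf6) adjusts their expression to demand. Neurons depend on these systems because most of them are not replaced and they make many membrane and secreted proteins.

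Each sample had 22919364 to 28301861 fragments counted on genes (median 25816352), and each of the 38 genes passed the filter for testing, with at least 74 counts in each sample. The punches held whole tissue, so that fewer cells of a type and less RNA per cell cannot be told apart. The markers of granule neurons were detected in all samples, with summed CPM of 1205 to 1457 in dorsal and 573 to 874 in ventral samples, and 6 of 6 markers were higher in dorsal DG. The study names *Lct*, among these, as reported before to be dorsally enriched in granule cells. The 3 pan-neuron markers summed to 2543 to 3219 CPM in dorsal and 2514 to 3349 CPM in ventral samples (1 of 3 higher in dorsal DG). The 8 markers of choroid plexus and ependyma summed to 28.8 to 214 CPM in dorsal samples (highest in SH replicate 1) and to 395 to 1436 CPM in ventral samples, and 8 of 8 were higher in ventral DG. The 3 markers of mossy cells and CA3 summed to 65.7 to 81.5 CPM in dorsal and 146 to 183 CPM in ventral samples, without overlap (2 of 3 higher in ventral DG). Astrocyte markers summed to 1706 to 2028 CPM in dorsal and 1901 to 2442 CPM in ventral samples (2 of 5 higher in ventral DG). The part of these markers in the regional differences below was not tested.

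Expression levels of different genes were compared as FPKM, which is scaled for transcript length. *Hspa8* (the constitutive Hsp70 of the cytosol) had the highest level, with 879 ± 103 FPKM in dorsal SH, 887 ± 51.3 in dorsal EE, 882 ± 129.9 in ventral SH and 862 ± 143 in ventral EE (mean ± SD). The cytosolic Hsp90 genes *Hsp90ab1* (471 FPKM over all 18 samples) and *Hsp90aa1* (383 FPKM) came next, followed by the ER chaperones *Calr* (185), *Canx* (141), *Hspa5* (128) and *Hsp90b1* (113). The lowest levels were those of 6 genes. *Hspa1a* averaged 3.88 FPKM, *Hspa1b* 6.34, *Hspb1* 6.15, *Nqo1* 3.48, *Hmox1* 2.61 and *Bag3* 1.95, the lowest of the 38. Neighbors in this order often overlapped within their SD, as *Calr* and *Canx* did in dorsal SH (178 ± 26.9 and 143 ± 10.5 FPKM), whereas the range from *Bag3* to *Hspa8* was far larger than the spread between samples.

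**Figure D1:**
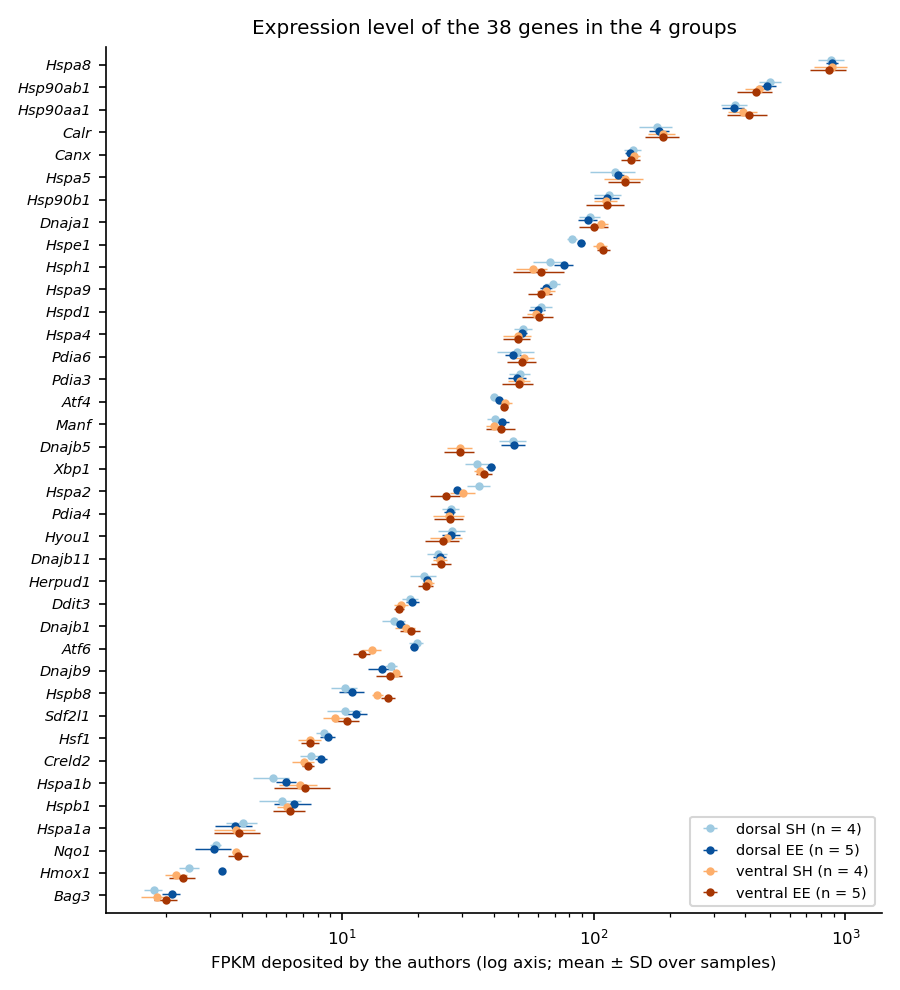
Expression level of each of the 38 genes (rows, ordered by mean level) as FPKM on a log axis; points are group means and bars the SD over 4 (SH) or 5 (EE) samples. *Hspa8* and the 2 Hsp90 genes are at the top, and *Hmox1* and *Bag3* at the bottom, with the 4 groups close together for most genes.

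The comparison of dorsal with ventral DG asked which of these genes differ along the long axis of the hippocampus. In edgeR's quasi-likelihood test, with the mean of the SH and EE differences and Benjamini-Hochberg adjustment over 17040 genes, 17 of the 38 genes (44.7%) differed at FDR under 0.05, where 58.4% of all tested genes did. Of the 17 genes, 7 were higher in dorsal DG (29.0% of all tested genes) and 10 in ventral DG (29.3% of all tested genes). A fold change of at least 20% was reached by 7 of the 17 genes (32.7% of all tested genes passed both limits). The median log2 fold change of the 38 genes was -0.02 (all tested genes, -0.0046) and the median of its size without the sign was 0.10 (all tested genes, 0.19). Within SH alone 9 genes differed (41.7% of all tested genes) and within EE alone 12 (46.5%), of which 5 (28.3% of all tested genes) and 7 (29.8%) also had a fold change of at least 20%. The dorsal and ventral samples of SH did not overlap for 8 of the 38 genes (38.4% of all tested genes), and those of EE for 7 (28.8%). The count within SH was 5 without SH replicate 2 and 6 without SH replicate 1 or 5, and the count within EE was 7 without EE replicate 3 or 5.

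Because dorsal and ventral samples came from the same mice, the regional test was also fitted with the pool as a block. It then found 20 of the 38 genes (62.0% of all tested genes), which included the 17 above and added *Hsp90ab1*, *Hspa5* and *Calr*. Within SH the blocked count was 15 (47.1% of all tested genes) and within EE it was 19 (51.3%).

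**Figure D2:**
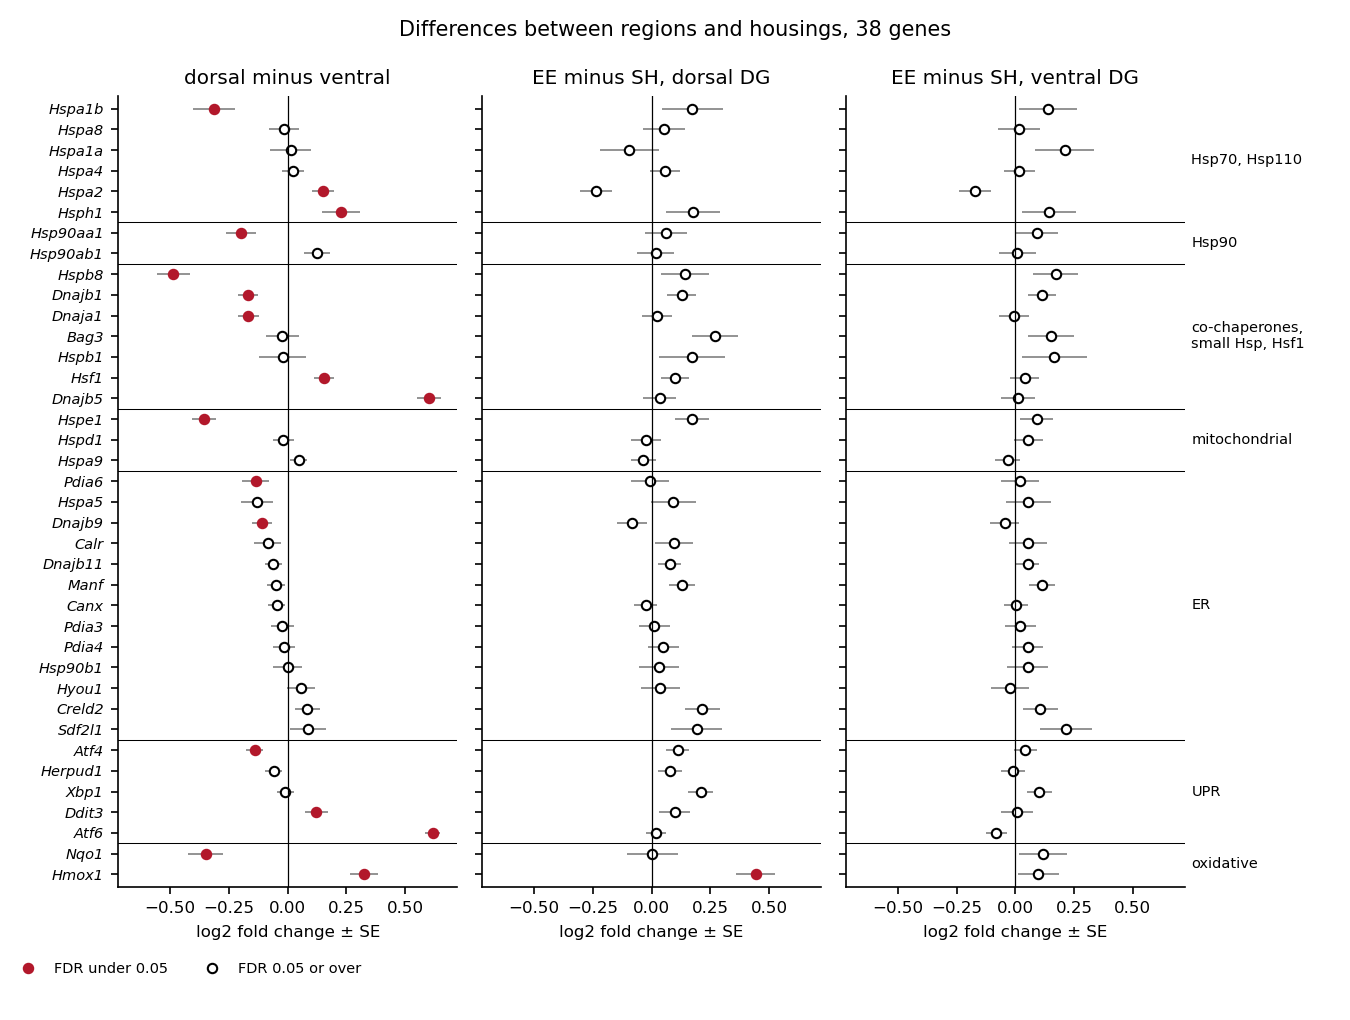
Log2 fold changes with standard errors of the 38 genes, by role (UPR, unfolded protein response), between dorsal and ventral DG (left) and between EE and SH in dorsal (middle) and ventral DG (right); filled points have FDR under 0.05. In the left panel 17 genes are filled, with *Atf6* and *Dnajb5* farthest to the dorsal side and *Hspb8* farthest to the ventral side, in the middle panel only *Hmox1* is filled, and in the right panel no gene is.

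Among the cytosolic Hsp70 and Hsp110 genes, *Hspa2* and *Hsph1* were higher in dorsal DG and *Hspa1b* in ventral DG, while *Hspa8*, *Hspa4* and *Hspa1a* did not pass the test. *Hsph1* encodes Hsp110, a nucleotide exchange factor of Hsp70. In this and all later lists, values are CPM in order of replicate number (1, 2, 4 and 5 for SH, 1 to 5 for EE). *Hsph1* had 224, 201, 246 and 249 CPM in dorsal SH, 265, 213, 266, 282 and 275 in dorsal EE, 169.7, 182, 224 and 219 in ventral SH and 198, 158, 238, 254 and 250.4 in ventral EE. Each of the 9 pools had more *Hsph1* in its dorsal than its ventral sample, while the dorsal and ventral ranges overlapped (log2 fold change 0.23 ± 0.08, SE, adjusted p = 0.0213). Without the block, the difference did not pass the threshold when SH replicate 1 (adjusted p = 0.0630) or EE replicate 1 (adjusted p = 0.0611) was left out. With the pool as a block and all 9 pools, the adjusted p was 3.42e-05.

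*Hspa2*, a further Hsp70 of the cytosol, had 109, 91.6, 97.2 and 97.9 CPM in dorsal SH, 84.2, 85.5, 83.5, 81.8 and 85.1 in dorsal EE, 75.8, 85.3, 92.6 and 95.5 in ventral SH and 74.3, 70.1, 73.4, 87.7 and 81.6 in ventral EE. It was higher in the dorsal sample of 8 of 9 pools, with SH replicate 1 the highest of all samples and the regions overlapping. The log2 fold change was 0.15 ± 0.05, with an adjusted p of 0.00962 without the block and 0.00726 with it. Without SH replicate 1 in both regions, the adjusted p of the fit without the block was 0.0657. Its dorsal sample had the highest sum of choroid plexus and ependyma markers in dorsal DG (214 CPM). Its ventral sample had the lowest in ventral DG (395 CPM), and the part of these markers in the value was not tested. *Hspa1a* and *Hspa1b* encode nearly identical heat-inducible Hsp70 proteins and lie near each other (chr17:34969190-34972156, minus strand, and chr17:34956436-34959238, minus strand, GRCm38). *Hspa1b* had 7.82, 6.01, 7.26 and 7.67 CPM in dorsal SH, 8.10, 7.46, 7.68, 8.56 and 8.74 in dorsal EE, 7.59, 7.89, 9.44 and 11.3 in ventral SH and 8.50, 7.52, 10.8, 11.3 and 11.6 in ventral EE. It was higher in ventral DG in 8 of 9 pools, and the ventral values of SH replicate 1 and EE replicates 1 and 2 lay within the dorsal range of their housing (log2 fold change -0.31 ± 0.09, adjusted p = 0.00463).

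For *Hspa1a* the CPM were 5.38, 5.43, 5.25 and 6.18 in dorsal SH, 4.64, 4.68, 4.92, 5.63 and 6.15 in dorsal EE, 4.24, 4.10, 5.15 and 6.39 in ventral SH and 5.24, 4.94, 6.35, 6.62 and 5.52 in ventral EE. These overlapped throughout (log2 fold change 0.01 ± 0.09, adjusted p = 0.914), and the sign turned under other ways of counting. The split of fragments between the pair is uncertain, because the counts hold only fragments that map to one place. When fragments with several places were shared out, *Hspa1a* had 2.29 times and *Hspa1b* 2.20 times as many as the unique counts. The same ratio was over 1.2 for 4 other genes of the 38: *Hspa8*, *Hsp90aa1*, *Dnaja1* and *Hspb1* (1.38, 1.34, 1.34 and 1.22), and these are likewise less certain than the rest. *Hspa8* (-0.02 ± 0.06) and *Hspa4* (0.02 ± 0.05), another Hsp110 family member, had log2 fold changes within their standard errors of 0.

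The 2 cytosolic Hsp90 genes had log2 fold changes of opposite sign, of which one passed the test. *Hsp90aa1*, the more inducible form, had 779.7, 656, 764 and 776 CPM in dorsal SH, 815, 716, 762, 778 and 817 in dorsal EE, 751, 780.4, 921 and 928 in ventral SH and 846, 699.6, 995, 993 and 969 in ventral EE. It was higher in the ventral sample of 7 of 9 pools (log2 fold change -0.20 ± 0.06, adjusted p = 0.0104), and the exceptions were SH replicate 1 and EE replicate 2. *Hsp90ab1*, the more constitutive form, had a dorsal mean of 1279.9 ± 84.6 CPM in SH and 1295 ± 82.1 in EE against 1179 ± 118 and 1185 ± 129 in ventral DG (mean ± SD). Its dorsal sample was the higher in 9 of 9 pools. The log2 fold change was 0.12 ± 0.06 with an adjusted p of 0.0622 without the block and 0.00297 with it, and of 0.0460 without EE replicate 2.

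Of the 7 cytosolic co-chaperones, small heat shock proteins and *Hsf1*, 2 were higher in dorsal DG, 3 in ventral DG and 2 (*Hspb1* and *Bag3*) did not pass the test. Over all tested genes, 29.0% were called higher in dorsal DG and 29.3% in ventral DG. *Dnajb5*, a J-domain co-chaperone of Hsp70, had 97.1, 91.8, 106 and 108 CPM in dorsal SH, 101, 91.8, 107, 110.3 and 106 in dorsal EE, 61.2, 62.4, 73.3 and 71.2 in ventral SH and 61.2, 62.9, 66.7, 75.8 and 70.8 in ventral EE. All 9 dorsal samples were above all 9 ventral samples (18.9% of all tested genes were separated in this way), with a mean log2 fold change of 0.60 ± 0.05 (adjusted p = 8.65e-10, 51.7% higher). *Hspb8*, a small heat shock protein that acts with Bag3 in selective autophagy, showed the opposite direction. Its CPM were 17.4, 23.7, 20.4 and 17.2 in dorsal SH, 22.9, 25.5, 20.002, 21.6 and 18.4 in dorsal EE, 27.7, 29.5, 26.3 and 25.3 in ventral SH and 32.3, 36.1, 30.1, 27.9 and 27.1 in ventral EE. Within each housing the regions did not overlap, and the log2 fold change was -0.49 ± 0.07 (adjusted p = 3.51e-06).

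The J-domain proteins *Dnaja1* and *Dnajb1* were both lower in dorsal DG by a small amount. *Dnaja1* had 175, 168, 189 and 193 CPM in dorsal SH, 189, 162, 181, 197 and 194 in dorsal EE, 197, 198, 215 and 212 in ventral SH and 206, 178, 214, 218 and 209.5 in ventral EE. The ventral sample was higher in 9 of 9 pools (log2 fold change -0.17 ± 0.05, adjusted p = 0.00308), without overlap in SH and with overlap in EE, where replicate 2 was the lowest in both regions. *Dnajb1*, the main partner of heat-inducible Hsp70, had 37.4, 34.8, 42.6 and 39.4 CPM in dorsal SH, 38.5, 45.3, 41.9, 41.6 and 43.5 in dorsal EE, 42.1, 40.1, 47.1 and 44.9 in ventral SH and 43.2, 48.2, 46.4, 48.3 and 49.3 in ventral EE. It was higher in the ventral sample of 9 of 9 pools, and the regions overlapped in both housings (log2 fold change -0.17 ± 0.04, adjusted p = 0.00197).

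*Hsf1* itself, the transcription factor of the heat shock response, was higher in dorsal DG. It had 21.9, 20.4, 22.1 and 22.1 CPM in dorsal SH, 22.0, 22.6, 24.4, 25.1 and 21.9 in dorsal EE, 18.6, 18.4, 21.4 and 20.9 in ventral SH and 19.1, 20.6, 21.7, 19.5 and 21.1 in ventral EE. The dorsal sample was higher in 9 of 9 pools, with no overlap in EE (log2 fold change 0.15 ± 0.04, adjusted p = 0.00393). For *Bag3*, a nucleotide exchange factor that joins Hsp70 to small heat shock proteins, the CPM were 5.16, 4.85, 5.08 and 4.58 in dorsal SH, 5.49, 6.05, 6.83, 5.91 and 5.42 in dorsal EE, 4.52, 5.90, 5.47 and 4.97 in ventral SH and 5.28, 6.07, 6.74, 5.16 and 5.67 in ventral EE. The regions overlapped in both housings (log2 fold change -0.02 ± 0.07, adjusted p = 0.802), and the small heat shock protein *Hspb1* had a log2 fold change of -0.02 ± 0.10.

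**Figure D3:**
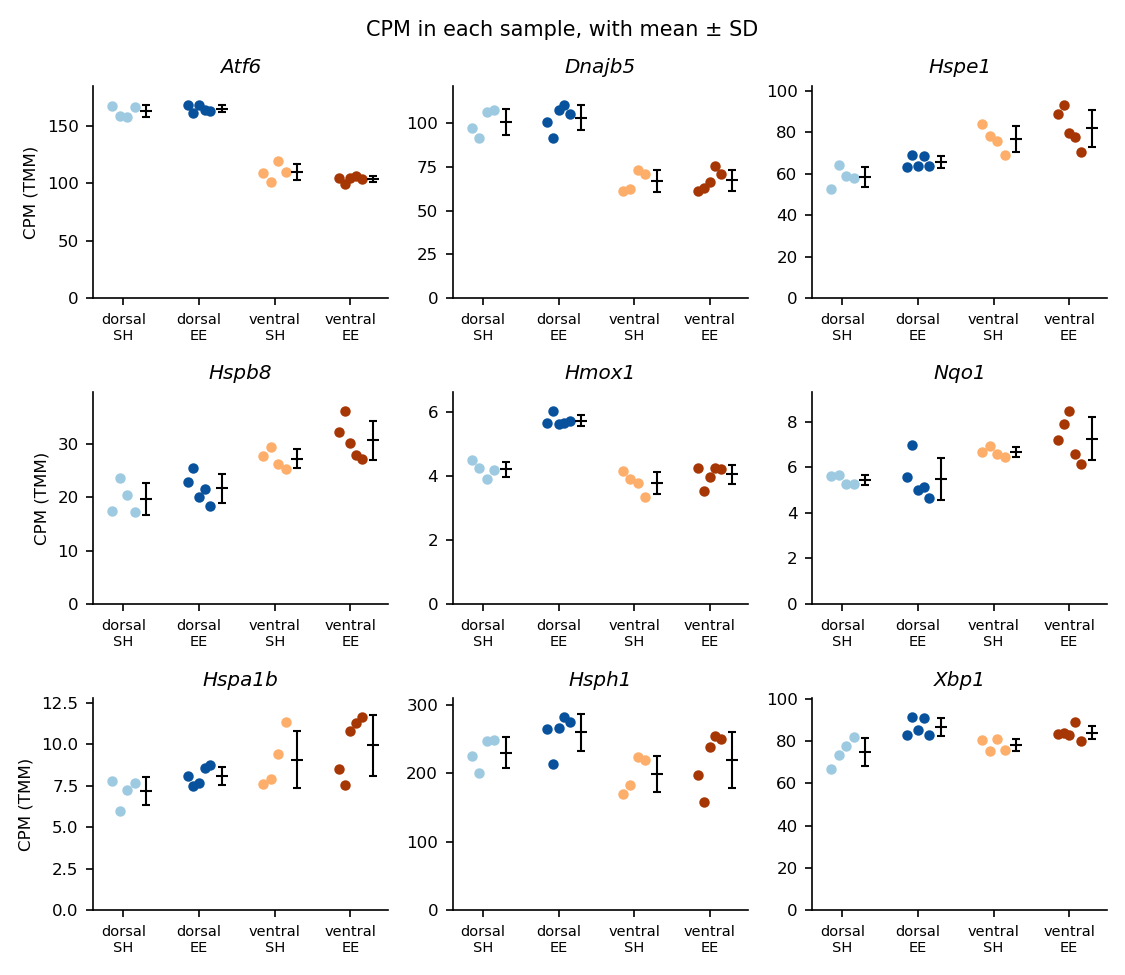
CPM of 9 of the genes in each sample (points, left to right by replicate number) with the mean ± SD of each group; axes start at 0. *Atf6* and *Dnajb5* are higher in all dorsal than all ventral samples, *Hspe1*, *Hspb8* and *Nqo1* are higher in ventral DG, and *Hmox1* stands above the other groups in dorsal EE, where its 5 samples lie between 5.61 and 6.01 CPM.

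The mitochondrial chaperones differed in their regional pattern, although the genes of the chaperonin Hsp60 (*Hspd1*) and its cofactor Hsp10 (*Hspe1*) lie on opposite strands of chromosome 1 with overlapping 5′ ends (chr1:55077835-55088243, minus strand, and chr1:55088132-55091307, plus strand, GRCm38). A stretch with overlapping matches to the heat shock element, the site that Hsf1 binds, fell in the promoter windows of both genes. It lies before the start of *Hspe1* and before 1 of the 2 RefSeq starts of *Hspd1*, and inside *Hspd1* as annotated with its other start. It is printed on the strand of *Hspe1*, from RefSeq on GRCm38.p6 (chr1:55088044-55088091, plus strand). Capitals mark the letters covered by the searched forms, which were GAA, TTC and GAA, or TTC, GAA and TTC, each triplet 2 bases from the next. Of 32851 promoter windows in the RefSeq table (250 bases before to 50 after the start), 0.603% held either form. Among the 29 of the 38 genes that had a window, the forms were found in *Hspd1*, *Hspe1* and *Hsph1*, whose match lies after its start (chr5:149636280-149636308, minus strand).
Hspe1: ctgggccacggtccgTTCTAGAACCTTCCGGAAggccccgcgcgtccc
Hsph1: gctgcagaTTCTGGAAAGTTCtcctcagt

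*Hspe1* had 52.7, 64.1, 58.9 and 57.8 CPM in dorsal SH, 63.4, 69.1, 63.7, 68.6 and 63.7 in dorsal EE, 84.1, 78.2, 75.6 and 69.2 in ventral SH and 88.6, 93.0, 79.6, 77.5 and 70.5 in ventral EE. All 9 ventral samples were above all 9 dorsal samples, by a narrow margin between dorsal EE replicate 2 and ventral SH replicate 5 (log2 fold change -0.36 ± 0.05, adjusted p = 2.81e-06). *Hspd1*, whose window held the same stretch, overlapped between the regions and had a log2 fold change of -0.02 ± 0.04 (adjusted p = 0.747). *Hspa9*, the mitochondrial Hsp70, had a log2 fold change of 0.05 ± 0.04 (adjusted p = 0.289).

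The 13 ER chaperones showed small regional differences, of which 2 passed the test (58.4% of all tested genes did), both higher in ventral DG. Their log2 fold changes ranged from -0.14 (*Pdia6*) to 0.09 (*Sdf2l1*), with a median of -0.05. *Pdia6*, a protein disulfide isomerase that also binds the Ire1 and Perk sensors, had a log2 fold change of -0.14 ± 0.06 (adjusted p = 0.0488) and was higher in the ventral sample of 8 of 9 pools. *Dnajb9* (ERdj4), the J-domain partner that brings BiP to Ire1, had -0.11 ± 0.04 (adjusted p = 0.0346) and was higher in the ventral sample of 9 of 9 pools. Both calls were near the threshold. Leaving out 7 of the 9 pools in turn (SH replicates 1, 2 and 4 and EE replicates 1, 3, 4 and 5) took *Pdia6* past it (adjusted p up to 0.0948), and leaving out 6 pools (SH replicates 1, 2, 4 and 5 and EE replicates 3 and 4) took *Dnajb9* past it (adjusted p up to 0.0821).

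With the pool as a block, *Pdia6* and *Dnajb9* passed with adjusted p of 7.43e-04 and 0.00857, and *Hspa5* and *Calr* passed as well. *Hspa5* encodes BiP, the Hsp70 of the ER and a repressor of the stress sensors. Its CPM were 245, 259.5, 339 and 326 in dorsal SH, 299.9, 299, 313, 337 and 311 in dorsal EE, 276, 295, 378 and 350.3 in ventral SH and 314, 302, 338, 388 and 343 in ventral EE. The ventral sample was higher in 9 of 9 pools, while SH replicates 1 and 2 were below SH replicates 4 and 5 in both regions. The log2 fold change of -0.13 ± 0.07 had an adjusted p of 0.101 without the block and 6.02e-04 with it. *Calr*, the calcium-binding lectin chaperone calreticulin, had a log2 fold change of -0.08 ± 0.06 (adjusted p = 0.214 without the block and 0.0129 with it) and was higher in the ventral sample of 8 of 9 pools. The other 9 genes did not pass either way. These are *Hsp90b1* (Grp94, the Hsp90 of the ER), *Hyou1* (the Hsp110 of the ER), the J-domain protein *Dnajb11*, the disulfide isomerases *Pdia3* and *Pdia4*, the lectin chaperone *Canx*, *Sdf2l1*, which works with Dnajb11, and the secreted ER stress proteins *Creld2* and *Manf*, with log2 fold changes between -0.06 and 0.09.

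The promoters were also searched for the ER stress element, the site that Atf6 binds together with the CCAAT-binding factor NF-Y. The genes were chosen by name, in part for the response that acts through this site. Its presence is therefore not independent of that choice. The form CCAAT, 9 bases of any kind and CCACG was searched on both strands and was present in 0.119% of the 32851 promoter windows. A gene was counted if any of its windows held the form. This was so for 6 of the 29 genes with a window: *Hspa5*, *Hsp90b1*, *Pdia6*, *Calr*, *Canx* and *Creld2*. All 6 are ER chaperones, of which 11 had a window, and *Dnajb9*, *Dnajb11*, *Pdia3*, *Pdia4* and *Sdf2l1* had a window without this form. The matches are printed with 15 bases on either side, and *Hspa5* with its 250 bases before the start. Capitals mark the match, which reads as the reverse complement of the form where it lies on the other strand (*Calr*, *Creld2* and the match of *Hsp90b1* closer to the start). The CCAAT box alone was found in 22 of the 29 genes and in 37.4% of all windows, and includes each ER stress element. A match describes the sequence only. On GRCm38.p6 these stretches lie at chr2:34771840-34772089, plus strand (*Hspa5*), chr10:86705518-86705671, minus strand (*Hsp90b1*), chr12:17266476-17266524, plus strand (*Pdia6*), chr8:84847060-84847108, minus strand (*Calr*), chr11:50325785-50325833, minus strand (*Canx*) and chr15:88819505-88819553, plus strand (*Creld2*).
Hspa5: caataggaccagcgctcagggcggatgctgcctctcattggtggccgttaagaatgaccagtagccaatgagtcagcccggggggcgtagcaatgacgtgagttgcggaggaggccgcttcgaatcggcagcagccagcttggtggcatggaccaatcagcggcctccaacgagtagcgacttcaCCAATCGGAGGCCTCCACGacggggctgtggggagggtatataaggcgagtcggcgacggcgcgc
Hsp90b1: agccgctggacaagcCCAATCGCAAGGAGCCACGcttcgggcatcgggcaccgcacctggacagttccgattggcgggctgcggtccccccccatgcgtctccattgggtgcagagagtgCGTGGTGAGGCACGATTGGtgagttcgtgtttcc
Pdia6: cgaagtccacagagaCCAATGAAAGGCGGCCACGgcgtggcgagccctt
Calr: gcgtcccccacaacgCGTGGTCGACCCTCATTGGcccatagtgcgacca
Canx: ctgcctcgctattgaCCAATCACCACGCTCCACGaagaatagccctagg
Creld2: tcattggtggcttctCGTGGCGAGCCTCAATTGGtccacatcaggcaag

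Among the 5 regulators of the unfolded protein response, *Atf6* and *Ddit3* were higher in dorsal DG, *Atf4* was higher in ventral DG, and *Xbp1* and *Herpud1* did not pass the test. *Atf6* encodes a membrane sensor of the ER that is cut under stress and then acts as a transcription factor. It had the smallest p of the 38 genes, with 168, 159, 158 and 167 CPM in dorsal SH, 168, 161, 168, 164 and 163 in dorsal EE, 109, 102, 119 and 109.6 in ventral SH and 105, 99.4, 104, 106 and 104 in ventral EE. All 9 dorsal samples were above all 9 ventral samples, with a gap between 119 and 158 CPM (log2 fold change 0.62 ± 0.03, adjusted p = 2.06e-13, 53.4% higher). The gene lies at chr1:170704674-170867771, minus strand (GRCm38).

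*Atf4*, the transcription factor made when Perk or related kinases slow translation, had 70.7, 72.0, 71.7 and 72.8 CPM in dorsal SH, 76.4, 83.8, 74.4, 76.1 and 76.8 in dorsal EE, 88.5, 77.9, 81.6 and 75.9 in ventral SH and 86.9, 89.7, 78.3, 81.4 and 80.9 in ventral EE. The ventral sample was higher in 9 of 9 pools and the regions did not overlap in SH (log2 fold change -0.14 ± 0.04, adjusted p = 0.00182). *Ddit3* (CHOP), a target of Atf4, was higher in the dorsal sample of 7 of 9 pools (log2 fold change 0.12 ± 0.05, adjusted p = 0.0341 without the block and 0.0226 with it). The call without the block was lost when SH replicate 4 or 5 or EE replicate 3 or 5 was left out (adjusted p up to 0.139). *Xbp1*, which Ire1 splices into an active transcription factor, had a log2 fold change of -0.01 ± 0.04 and *Herpud1*, a component of ER-associated degradation, of -0.06 ± 0.04. The counts are of whole genes, so the spliced form of *Xbp1* was not measured.

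The 2 oxidative stress enzymes differed in opposite directions. *Hmox1* (heme oxygenase 1) had 4.48, 4.24, 3.89 and 4.17 CPM in dorsal SH, 5.64, 6.01, 5.61, 5.63 and 5.70 in dorsal EE, 4.13, 3.91, 3.77 and 3.32 in ventral SH and 4.23, 3.53, 3.96, 4.25 and 4.22 in ventral EE. It was higher in the dorsal sample of 9 of 9 pools, with overlap in SH and none in EE (log2 fold change 0.32 ± 0.06, adjusted p = 7.78e-05). Within SH alone the log2 fold change was 0.15 ± 0.09 (adjusted p = 0.216) and within EE alone 0.50 ± 0.08 (adjusted p = 1.93e-05). *Nqo1*, a quinone reductase, had 5.63, 5.68, 5.25 and 5.25 CPM in dorsal SH, 5.60, 7.0017, 5.00, 5.14 and 4.65 in dorsal EE, 6.67, 6.95, 6.61 and 6.47 in ventral SH and 7.18, 7.92, 8.46, 6.58 and 6.15 in ventral EE. It was higher in the ventral sample of 9 of 9 pools, with overlap only in EE, where dorsal replicate 2 was high (log2 fold change -0.35 ± 0.07, adjusted p = 3.70e-04).

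Transcript length moved with the direction of the regional difference over all genes. The median length was 3335 bases for the 4949 genes called higher in dorsal DG, 2089 bases for the 5000 called higher in ventral DG and 2516 bases for all 17040 (Spearman's rho between length and log2 fold change across genes, 0.26). *Atf6* (7210 bases) was the longest of the 38 and *Hspe1* (775 bases) the shortest, and Spearman's rho across the 38 genes was 0.21. The medians of the 7 dorsal and 10 ventral genes were 2048 and 1983 bases. The part of length in these differences was not tested.

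Related genes were examined in the same fit, from 5 lists of 116 genes in all (112 tested), of which 63 differed between the regions (56.2%, against 58.4% of all tested genes). Over all tested genes, 29.0% were called higher in dorsal DG and 29.3% in ventral DG. Of 37 other cytosolic chaperones and co-chaperones, 7 were higher in dorsal DG and 12 in ventral DG. Those with the smallest p were the Hsp90 co-chaperone *Fkbp4* (0.25 ± 0.04, adjusted p = 1.65e-05) in dorsal DG, and the Hsp70 nucleotide exchange factor *Hspbp1* (-0.32 ± 0.04, adjusted p = 5.18e-07) and the Hsf1-binding protein *Hsbp1* (-0.31 ± 0.03, adjusted p = 2.50e-08) in ventral DG. Of the 8 subunits of the cytosolic chaperonin TRiC, 3 were higher in ventral DG and 0 in dorsal DG, led by *Cct4* (-0.14 ± 0.03, adjusted p = 5.16e-04). Of 10 mitochondrial chaperones and proteases, 5 were higher in ventral DG and 0 in dorsal DG, led by the protease subunit *Clpp* (-0.32 ± 0.05, adjusted p = 1.95e-05).

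Of 38 further genes of the unfolded protein response, ER folding and ER-associated degradation, 12 were higher in dorsal DG and 9 in ventral DG (29.0% and 29.3% of all tested genes). Ire1 (*Ern1*) was higher in dorsal DG, with 13.5, 11.8, 11.1 and 12.8 CPM in dorsal SH, 12.0, 11.9, 12.7, 12.4 and 11.5 in dorsal EE, 9.15, 9.62, 10.6 and 10.0 in ventral SH and 9.05, 10.7, 10.2, 10.9 and 10.3 in ventral EE. The regions did not overlap (log2 fold change 0.29 ± 0.05, adjusted p = 3.18e-05). Perk (*Eif2ak3*), named here after its values were seen because it is the remaining sensor, was also higher in dorsal DG without overlap (log2 fold change 0.20 ± 0.04, adjusted p = 5.51e-05). The genes with the smallest p in ventral DG were the ER J-domain reductase *Dnajc10* (-0.33 ± 0.03, adjusted p = 3.68e-08), the Atf4 target *Chac1* (-0.56 ± 0.07, adjusted p = 8.26e-07) and *Sdf2* (-0.26 ± 0.04, adjusted p = 1.14e-05), the relative of *Sdf2l1*. Of 19 genes of the Nrf2 and antioxidant list, 3 were higher in dorsal DG, led by thioredoxin reductase *Txnrd1* (0.27 ± 0.03, adjusted p = 1.94e-07), and 12 in ventral DG, led by the glutathione transferase *Gsta4* (-0.62 ± 0.03, adjusted p = 9.12e-14).

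The comparison of EE with SH asked whether housing changed these genes in either region. In dorsal DG 1 of the 38 genes rose and 0 fell at FDR under 0.05 (0.716% of all tested genes were called, 0.411% higher and 0.305% lower in EE), and 9 had an unadjusted p under 0.05 (8.81% of all tested genes). The gene that rose was *Hmox1*, whose values are given above. All 5 EE samples (5.61 to 6.01 CPM) were above all 4 SH samples (3.89 to 4.48 CPM), a rise of 36.0% (log2 fold change 0.44 ± 0.08, adjusted p = 0.00735, edgeR). It passed the threshold without each pool in turn, with adjusted p between 0.0135 and 0.0496. The 5 markers of microglia and macrophages, cells in which heme oxygenase 1 is known to be inducible, summed to 268 to 301 CPM in dorsal SH and 262 to 308 CPM in dorsal EE. One of the 5, *P2ry12*, was called and was lower in EE, and the part of these cells in the value was not tested.

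The next genes by p in dorsal DG did not pass. *Xbp1* had 66.6, 73.3, 77.5 and 81.9 CPM in dorsal SH and 82.7, 91.3, 85.1, 90.8 and 83.0 in dorsal EE. The groups did not overlap, as was so for 6 of the 38 genes and 3.99% of all tested genes, and the log2 fold change was 0.21 ± 0.05 (adjusted p = 0.0719). Its adjusted p was 0.0372 without SH replicate 5, the highest of the SH samples. *Hspa2* was lower in each EE sample than in each SH sample, at 84.0 ± 1.45 CPM (mean ± SD) against 99.0 ± 7.39 (log2 fold change -0.24 ± 0.07, adjusted p = 0.135). *Creld2* had 9.47, 11.1, 11.7 and 11.6 CPM in dorsal SH and 12.4, 12.4, 13.1, 12.5 and 13.1 in dorsal EE, again without overlap (log2 fold change 0.22 ± 0.07, adjusted p = 0.281). The other genes without overlap were *Bag3* (0.27, adjusted p = 0.339) and *Atf4* (0.11, adjusted p = 0.531).

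In ventral DG 0 of the 38 genes passed (0.246% of all tested genes did), and 1 had an unadjusted p under 0.05 (7.58% of all tested genes). DESeq2 also called 0. The smallest p was that of *Hspa2*, with a log2 fold change of -0.17 ± 0.07 (adjusted p = 0.499 in edgeR) and overlapping groups. *Manf* had 39.2, 42.1, 41.5 and 40.1 CPM in ventral SH and 43.4, 46.8, 42.3, 47.4 and 40.4 in ventral EE (log2 fold change 0.11 ± 0.06, adjusted p = 0.658). *Sdf2l1* had 10.5, 9.28, 10.6 and 11.9 CPM in ventral SH and 11.4, 13.991, 11.0, 13.9 and 11.2 in ventral EE (log2 fold change 0.21 ± 0.11, adjusted p = 0.682). For *Xbp1* the values were 80.8, 75.4, 80.9 and 75.9 CPM in ventral SH and 83.4, 83.9, 83.2, 88.8 and 80.3 in ventral EE (log2 fold change 0.10 ± 0.05, adjusted p = 0.704), and for these 3 genes the groups overlapped, as they did for each of the 38 genes (2.45% of all tested genes did not overlap).

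The log2 fold change was above 0 for 31 of the 38 genes in dorsal DG (48.6% of all tested genes) and for 31 in ventral DG (49.9%), with medians of 0.07 and 0.05. These counts depended on single pools. Without SH replicate 2 the dorsal count was 24 and the median 0.03. The ventral count was 23 without SH replicate 1 (median 0.02), 24 without SH replicate 2 (median 0.02) and 23 without EE replicate 4 (median 0.02). Dorsal and ventral samples came from the same pools and are not independent here.

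The EE effect of dorsal DG was also tested against that of ventral DG. The difference passed the threshold for 0 of the 38 genes (0.00587% of all tested genes, 1 gene), with DESeq2 also calling 0 and 1 of the 38 at an unadjusted p under 0.05 in edgeR (3.25% of all tested genes). That gene was *Hmox1*, whose difference in log2 fold change was 0.35 ± 0.12 (adjusted p = 1 in edgeR). In ventral DG its log2 fold change with EE was 0.10 ± 0.09 (adjusted p = 0.852), and the 2 effects of EE were not shown to differ after adjustment. *Hspa1a* (-0.30 ± 0.18) and *Atf6* (0.10 ± 0.06) had the next smallest p.

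Of the 112 related genes, EE called 2 in dorsal DG (1.79%, against 0.716% of all tested genes) and 0 in ventral DG (0.246% of all tested genes). Both stood in the Nrf2 and antioxidant list. *Srxn1*, sulfiredoxin, rose from 89.5, 87.7, 92.0 and 90.4 CPM in dorsal SH to 107, 107, 104, 104 and 102 in dorsal EE, without overlap (log2 fold change 0.22 ± 0.04, adjusted p = 0.00611). In ventral DG it had 97.8, 97.6, 91.7 and 91.3 CPM in SH and 107, 99.7, 109, 104 and 108 in EE (log2 fold change 0.16 ± 0.04, adjusted p = 0.142), also without overlap. *Gsta4* fell from 39.4, 38.6, 40.7 and 41.4 CPM in dorsal SH to 35.1, 34.8, 31.9, 32.8 and 34.8 in dorsal EE, without overlap (log2 fold change -0.24 ± 0.04, adjusted p = 0.00617). The regulators of the antioxidant response themselves were not called, with log2 fold changes of -0.01 ± 0.05 for *Nfe2l2* (Nrf2) and 0.05 ± 0.04 for its inhibitor *Keap1*.

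Many chaperones deviated from their group mean in the same samples. In both regions, 19 of the 38 genes were lower in SH replicates 1 and 2 than in SH replicates 4 and 5, where 6.90% of all tested genes were. These 19 genes spanned the cytosol (*Hspa8*, *Hspa4*, *Hsph1*, *Hsp90ab1*, *Dnaja1*, *Dnajb1*, *Dnajb5* and *Hsf1*), the mitochondria (*Hspa9* and *Hspd1*) and the ER (*Hspa5*, *Hsp90b1*, *Hyou1*, *Pdia3*, *Pdia4*, *Pdia6*, *Calr*, *Canx* and *Sdf2l1*). The opposite order was found for *Hmox1* and *Nqo1* alone among the 38 (6.63% of all tested genes). *Hspa8* shows the size of this spread, with 1419.9, 1257, 1508 and 1567 CPM in dorsal SH and 1278, 1333, 1646 and 1638 in ventral SH.

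Among the EE samples, replicate 2 was the lowest of its group in both regions for 19 of the 38 genes (13.996% of all tested genes) and the highest in both for 4, *Hspb8*, *Hspe1*, *Atf4* and *Ddit3* (13.985% of all tested genes). More genes were below the group mean in ventral EE replicate 1, 31 of the 38 (49.3% of all tested genes), than in ventral EE replicate 2, with 25 (50.8%). *Hspa8* had 1457, 1401, 1471, 1539 and 1588 CPM in dorsal EE and 1363, 1232, 1578, 1677 and 1589.6 in ventral EE. In ventral EE replicate 2 *Hsph1* stood at 158 CPM, where the other 4 samples had 198 to 254 CPM. The share of fragments not counted on a gene (unmapped, mapped to several places, outside genes or ambiguous) was highest in this sample. It was 40.9%, with 32.6% to 39.5% in the other 17. The lowest of these was dorsal SH replicate 1 and the highest dorsal SH replicate 2, both among the low SH replicates above. The part of this share in the pattern was not tested. The within-group SD of log2 CPM ranged from 0.05 for *Atf6* (5.22% of all tested genes had a lower SD) to 0.22 for *Hspb1* (74.2% had a lower SD), with 0.21 for *Hsph1*, 0.17 for *Hspa5* and 0.15 for *Hspa8*. These patterns were seen in the data and then counted, and no test was made of them.

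**Figure D4:**
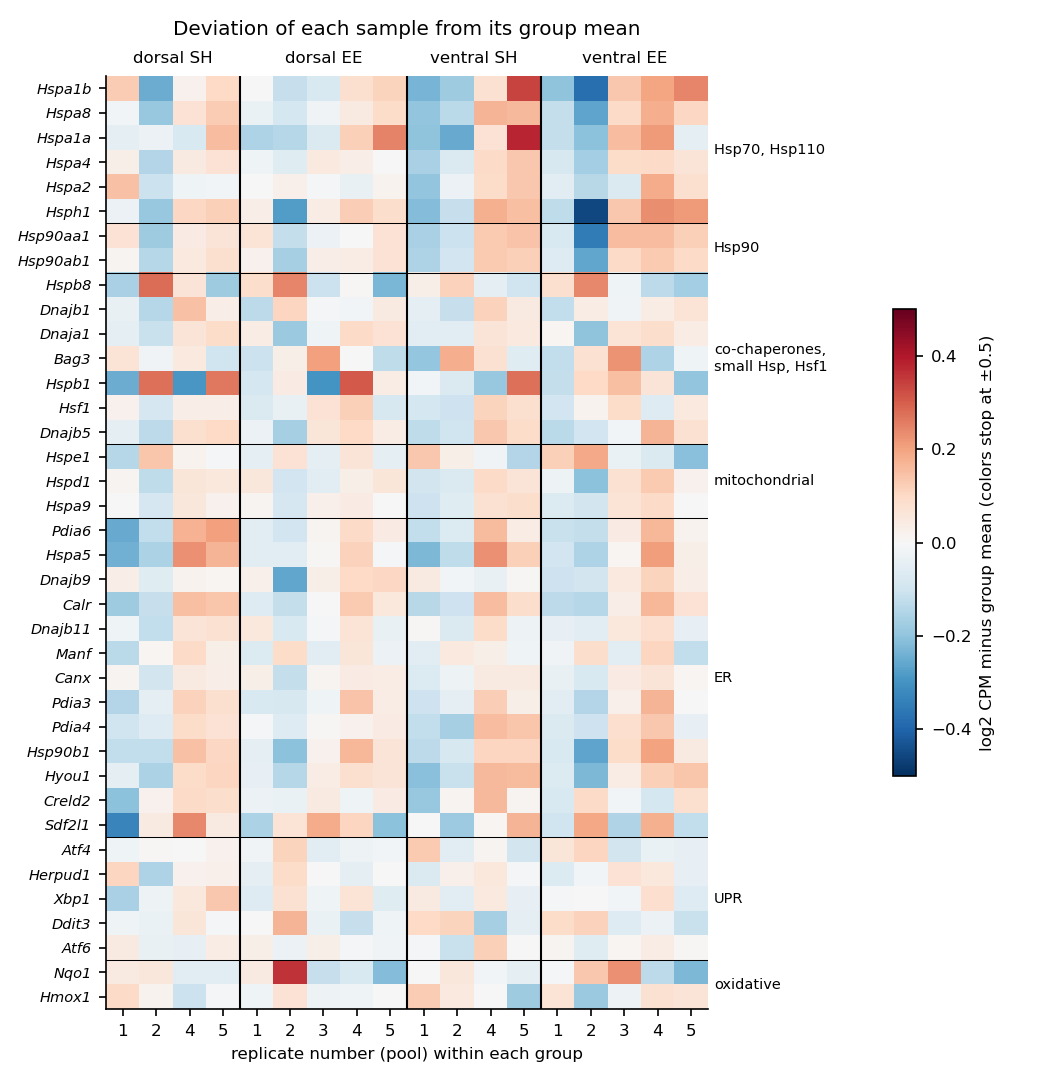
Deviation of log2 CPM from the group mean for each of the 38 genes (rows, by role; UPR, unfolded protein response) in each of the 18 samples (columns, labeled by replicate number within each group). Blue cells of many chaperones line up in SH replicate 2 and EE replicate 2 in both regions, and in ventral SH and ventral EE replicate 1. In dorsal SH replicate 1 blue is seen mostly among ER genes, and *Hspa2*, *Hspa1b* and *Hsp90aa1* are above the group mean. *Hspb8*, *Hspe1*, *Atf4* and *Ddit3* are red in EE replicate 2.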

How the data were processed

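RNA-Seq was made from total RNA with stranded libraries and paired reads of 100 bases, from tissue that also gave DNA; the methylation samples of the series were not analysed here. Per the labels, the authors trimmed reads (Trim Galore 0.4.0) and aligned them to mm10 (GRCm38) with STAR 2.5.1b, and deposited counts of uniquely mapped fragments per gene. The authors also deposited the expected counts, TPM and FPKM that RSEM 1.2.30 estimated, which share out fragments that map to several places. Genes were those of Gencode, given as Ensembl identifiers, and symbols were taken from the GRCm38 Gencode annotation (45968 of 46480 genes). Column 4 of the count files (the strand of the library) was used. Rows for fragments not counted on a gene (unmapped, mapped to several places, outside genes or ambiguous) were left out of library sizes. They held 32.6% to 40.9% of fragments in the 18 samples.

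As in the study, a gene was kept where 2 or more samples had over 10 counts (17040 genes), contrasts were fitted in edgeR and p-values were adjusted by Benjamini-Hochberg, with a call at FDR under 0.05. The quasi-likelihood test, TMM normalization and a single model of the 4 groups were chosen here (edgeR 4.0.16, R 4.3.3). The regional contrast was the mean of dorsal minus ventral in SH and in EE, which differs from the null hypothesis that the study writes for region (equal regional differences in SH and in EE). That equality is the test between regions here. Levels are CPM after TMM normalization, or FPKM where genes were compared. The expected counts were rounded before use in an alternative fit. The genes, lists and tests were chosen with earlier results of these data known. Values in every sample were given for called genes, at most 14 by p in the regional test, and for the 4 genes of smallest p in each EE test, the 3 of smallest p in the test between regions, the pair *Hspa1a* and *Hspa1b*, and the genes of highest and lowest level. For *Hspa5* and the related gene *Ern1* they were added after their values were seen. From each related list up to 3 called genes per direction were eligible. Dorsal and ventral samples of a pool came from the same mice, so that the pool was used as a block in an alternative. The mean correlation of their deviations from the group means was 0.0827 over 9 pairs (-0.0840 to 0.189). For dorsal and ventral samples of one housing with different numbers it was -0.0230 over 32 pairs (-0.209 to 0.203). Without the block, p-values set a difference against the spread of samples within the 4 groups and treat the dorsal and ventral sample of a pool as independent. With it, the regional p-values set the dorsal minus ventral difference against its spread between pools. Promoter windows came from the RefSeq table on GRCm38.p6, which held 29 of the 38 genes. The genes without a window were *Hspa8*, *Hsp90aa1*, *Hsp90ab1*, *Hsf1*, *Hspa9*, *Hyou1*, *Manf*, *Atf6* and *Hmox1*. Motifs were searched as exact letters on both strands. Shares are over windows, whereas a gene was counted if any of its windows matched, and a gene can have several. The scripts were tested on simulated data. Alternative settings used DESeq2 1.42.0, the likelihood ratio test, RLE normalization, other filters, all 20 samples, expected or unstranded counts, the block, a fit of 1 region and leaving out each pool.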

Additional observations from a re-analysis of the deposited data

Results flagged for a closer look

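Samples that stood far from the rest of their group were looked for among the 21 genes given by sample, in 84 groups of 4 or 5 samples. In 5 groups the gap to the nearest sample took up more of the group's range than Dixon's 95% critical value, where chance gives about 1 in 20. All 5 lay in replicate 2 of a dorsal group. In dorsal SH, replicate 2 was the lowest for *Hsp90aa1*, with 656 CPM where the other 3 samples had 764 to 779.7 CPM, and for *Hsf1*, with 20.4 CPM where the others had 21.9 to 22.1 CPM. In dorsal EE, replicate 2 was the lowest for *Hsph1*, with 213 CPM where the other 4 samples had 265 to 282 CPM. It was the highest for *Atf4*, with 83.8 CPM against 74.4 to 76.8 CPM, and for *Hmox1*, with 6.01 CPM against 5.61 to 5.70 CPM. The share of fragments not counted on a gene was 39.5% in dorsal SH replicate 2 and 38.6% in dorsal EE replicate 2, the highest of their groups. Its part in these values was not tested.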

How the results depend on the processing

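Of 605 recomputed log2 fold changes of 32 named results, 560 kept their direction and their side of the threshold, 28 lost a call, 11 gained one and 6 changed sign. The changes in sign were those of *Hspa1a* between the regions, at -0.043 with all 20 samples, -0.0075 with expected counts, -0.079 with unstranded counts and between -0.027 and 0.061 without 1 pool. The 17 genes that differed between the regions became 7 when a fold change of at least 20% was also asked (5 of 9 within SH and 7 of 12 within EE) and ranged from 13 to 18 without 1 pool. With the pool as a replicate block, the counts were 20 over both housings, 15 within SH and 19 within EE. Without 1 pool the counts ranged from 5 to 11 within SH and from 7 to 12 within EE. *Ddit3*, *Dnajb9*, *Pdia6* and *Hsph1* also lost the call in a joint test of both housings, *Ddit3* without a filter, *Ddit3* and *Pdia6* with expected counts, and *Pdia6* with all 20 samples, where *Hsp90ab1* gained it.

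The count of genes changed by EE in dorsal DG was 1, and 2 with the likelihood ratio test, DESeq2, all 20 samples or the replicate number as a block (*Hmox1* and *Xbp1*), 2 in a fit of dorsal samples alone (*Hmox1* and *Hspa2*) and 1 to 2 without 1 pool. In ventral DG and in the test between regions it was 0 throughout, without 1 pool and with the replicate block as well. In the labels, SH and EE samples with the same number share only that number. Their deviations had a mean correlation of 0.126 (lowest 0.0815) over 8 pairs, and -0.0314 over 32 pairs with different numbers. What else these samples shared was not tested. Why these calls moved was not tested.

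The number of pools limits the precision, and the counts cover whole genes in mixed tissue. For *Hspa1a*, *Hspa1b*, *Hspa8*, *Hsp90aa1*, *Dnaja1* and *Hspb1* the expected counts were over 1.2 times the unique counts, and *Manf* overlaps *Rbm15b* on the same strand.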

Other observations

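The pool left out for *Xist*, SH replicate 3, was used above only in the alternative fits with all 20 samples. In its dorsal and ventral sample *Atf6* had 153 and 107 CPM, *Dnajb5* 93.7 and 63.3 CPM, *Hspe1* 63.6 and 73.9 CPM, and *Hspb8* 21.0 and 30.4 CPM. *Hmox1* stood at 4.14 and 4.23 CPM, *Hsph1* at 207 and 183 CPM, and *Hspa8* at 1397 and 1400.1 CPM.

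The antioxidant element to which Nrf2 binds, searched on both strands as TGAC, 3 bases of any kind and GC, was found in 12.4% of the 32851 promoter windows and in those of *Hsph1*, *Dnajb1*, *Pdia3*, *Calr*, *Sdf2l1* and *Herpud1* among the 29 genes with a window.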
